A study of Rattus norvegicus with 16 samples.

Results

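The mucins, trefoil factors and gastrokines are the secreted and membrane proteins that build and hold the mucus of the stomach and intestine, and 10 of their genes were followed in the stomach and in the middle part of the intestine of suckling rats. The members are Gkn1, Gkn2, Tff1, Tff2, Tff3, Muc5ac, Muc6, Muc1, Muc2 and Muc13. Probes were chosen by gene name, which found 9 of the 10 genes on the array, and Muc6 was found through the description of its probes, whose gene name field holds a transcript number. Together they have 12 of the 30367 probes of the array, with 2 probes each for Muc2 and Muc6 and 1 for every other member. All 12 were among the 21174 probes that passed the filter on dim spots. For Muc5ac and Muc2 this rested on 1 tissue alone.

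Gene expression was measured on 16 Agilent two-colour rat arrays in 4 groups of 4. The rats, Wistar in the labels and Wistar Han in the methods, were pups. Those of the C groups received saline solution by the enteral route, and those of the OH groups received obestatin, a gut peptide encoded by the ghrelin gene. The dose was 250 nmol/kg BW, both were given 2 times a day from day 14 of life, and all rats were killed on day 21. Each treatment gave a stomach group and a middle intestine group, called C stomach or OH stomach and so on. Cy5 carried the tissue of a rat and Cy3 carried the common reference, a pool of the RNA of all animals, on every array, with no dye swap. The value used throughout is the log2 ratio of Cy5 to Cy3, so that 0 is the level of the pool and a step of 1 is a doubling. Each group lies on a slide of its own, and the 2 OH slides and the 2 C slides were scanned on different days, so that treatment cannot be told apart from slide or from scan day, and tissue cannot be told apart from slide. The methods describe both tissues as taken from 4 rats per treatment, but also give each array its own rat, and the labels do not tie a stomach to an intestine array, so that p-values measure the spread between these arrays.

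Mucus is a gel of very large glycoproteins. In the stomach, surface mucous cells release Muc5ac together with Tff1 and the gastrokines, and mucous neck cells deeper in the gland release Muc6 together with Tff2. In the intestine, goblet cells release Muc2 together with Tff3. Muc1 and Muc13 are anchored in the cell membrane and form part of the layer of sugars on the surface of epithelial cells. Trefoil factors are small, tightly folded peptides that act in epithelial repair, and gastrokines are small proteins of the gastric surface.

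The probe sequences show which stretch of each transcript was read, and those of the 2 gel-forming mucins that were detected in a single tissue, of Muc6, which was identified by its description, and of Tff3 and Gkn1 are given here. Each probe has 60 bases, is written 5′ to 3′ as in the array files, and has at least 1 reading frame with no stop codon before its last codon.
Muc5ac: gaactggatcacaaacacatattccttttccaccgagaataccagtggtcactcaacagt
Muc2, brighter probe: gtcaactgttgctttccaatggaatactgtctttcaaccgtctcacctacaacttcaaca
Muc2, other probe: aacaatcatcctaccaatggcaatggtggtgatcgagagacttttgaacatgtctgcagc
Muc6, brighter probe: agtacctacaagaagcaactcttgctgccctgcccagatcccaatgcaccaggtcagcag
Muc6, other probe: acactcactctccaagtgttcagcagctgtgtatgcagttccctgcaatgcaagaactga
Tff3: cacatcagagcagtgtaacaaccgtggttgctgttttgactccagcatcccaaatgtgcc
Gkn1: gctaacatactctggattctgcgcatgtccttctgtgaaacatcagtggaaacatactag

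The array design places its probes on the rn4 build. The probes of the trefoil factors lie together on the minus strand of chromosome 20, Tff3 at chr20:9471911-9471970, Tff2 at chr20:9492341-9492400 and Tff1 at chr20:9526690-9526749. Gkn1 lies at chr4:121496267-121496326 on the minus strand and Gkn2 at chr4:121530336-121530395 on the plus strand. The Muc6 probes lie side by side at chr1:201815896-201815955 and chr1:201815833-201815892. The probe of Muc1 covers 1299 bases of the genome from chr2:181402014 to 181403312 and that of Muc13 covers 3698 bases from chr11:68775517 to 68779214, so both 60-base probes are split over exons. The design gives no position for Muc2 and Muc5ac. In the RefSeq gene order of the GRCr8 assembly, Muc6 and Muc2 are next neighbours, Muc2 is followed by Muc5ac, and Tff3, Tff2 and Tff1 follow each other.

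To set members of opposite tissue levels side by side, the 250 bases before the RefSeq transcription start (GRCr8) are shown for 5 of the 7 members listed in the promoter table, namely 3 members higher in stomach and 2 higher in middle intestine. They are written 5′ to 3′ on the strand of the gene. Capitals mark matches of GATAA, the core letters bound by GATA factors, or of TATAAA, on either strand.
Gkn1, chr4:121352706-121352955, minus strand: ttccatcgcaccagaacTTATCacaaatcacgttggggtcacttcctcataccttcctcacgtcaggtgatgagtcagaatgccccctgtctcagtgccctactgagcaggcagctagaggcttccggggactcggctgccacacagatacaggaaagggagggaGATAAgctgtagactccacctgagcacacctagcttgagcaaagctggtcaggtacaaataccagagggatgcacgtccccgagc
Gkn2, chr4:121375344-121375593, plus strand: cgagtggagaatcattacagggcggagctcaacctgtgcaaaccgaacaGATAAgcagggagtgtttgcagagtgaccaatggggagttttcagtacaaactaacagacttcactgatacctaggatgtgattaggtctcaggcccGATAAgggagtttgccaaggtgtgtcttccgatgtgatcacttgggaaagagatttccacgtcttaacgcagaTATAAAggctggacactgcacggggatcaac
Muc1, chr2:176933500-176933749, plus strand: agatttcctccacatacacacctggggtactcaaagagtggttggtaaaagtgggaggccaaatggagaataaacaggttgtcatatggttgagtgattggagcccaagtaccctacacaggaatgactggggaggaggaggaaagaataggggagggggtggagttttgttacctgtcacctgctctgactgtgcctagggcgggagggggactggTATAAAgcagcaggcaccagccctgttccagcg
Muc2, chr1:206228785-206229034, plus strand: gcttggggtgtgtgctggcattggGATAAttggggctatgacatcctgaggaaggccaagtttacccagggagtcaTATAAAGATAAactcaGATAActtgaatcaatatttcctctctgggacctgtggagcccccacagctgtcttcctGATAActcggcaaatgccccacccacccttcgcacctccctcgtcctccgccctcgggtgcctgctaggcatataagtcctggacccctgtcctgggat
Tff3, chr20:9199334-9199583, minus strand: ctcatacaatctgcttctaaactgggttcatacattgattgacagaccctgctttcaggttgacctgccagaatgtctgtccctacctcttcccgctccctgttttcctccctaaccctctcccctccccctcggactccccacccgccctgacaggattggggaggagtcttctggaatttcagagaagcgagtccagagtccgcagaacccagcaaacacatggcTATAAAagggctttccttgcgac

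GATAA or its reverse complement TTATC was found 2 times before Gkn1, 2 times before Gkn2, 4 times before Muc2, 1 time each before Muc6 and Muc13, and not before Muc1 or Tff3. Among 33469 promoter windows of the same length in the table, 23.5% hold at least 1 match and 4.49% hold 2 or more. TATAAA or TTTATA was found 23 bases before the start of Tff3, 31 before Gkn2, 33 before Muc1 and 174 before Muc2, and 12.9% of all windows hold at least 1 match. The matches thus occur in members of both tissues and are a description of letters, not of sites.

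C stomach was compared with C middle intestine to give the tissue pattern of the members without obestatin. All 10 member genes were called (limma, Benjamini-Hochberg adjusted p under 0.05 over all probes), 7 higher in stomach and 3 higher in middle intestine, and the arrays of both groups did not overlap for any of them. Muc5ac and Muc2 passed the filter on dim probes only through the tissue where they are high. For both, the call and the lack of overlap therefore partly follow from the filter. The other 8 members were well above background in both tissues. The background is wide, since 47.6% of all 13233 genes tested were called, 23.2% higher and 24.3% lower in stomach, and 46.1% did not overlap. Among the members the median log2 difference was 6.05, and over all genes it was -0.03. In whole tissue, fewer cells of a type and less RNA per cell cannot be told apart.

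**Figure D1:**
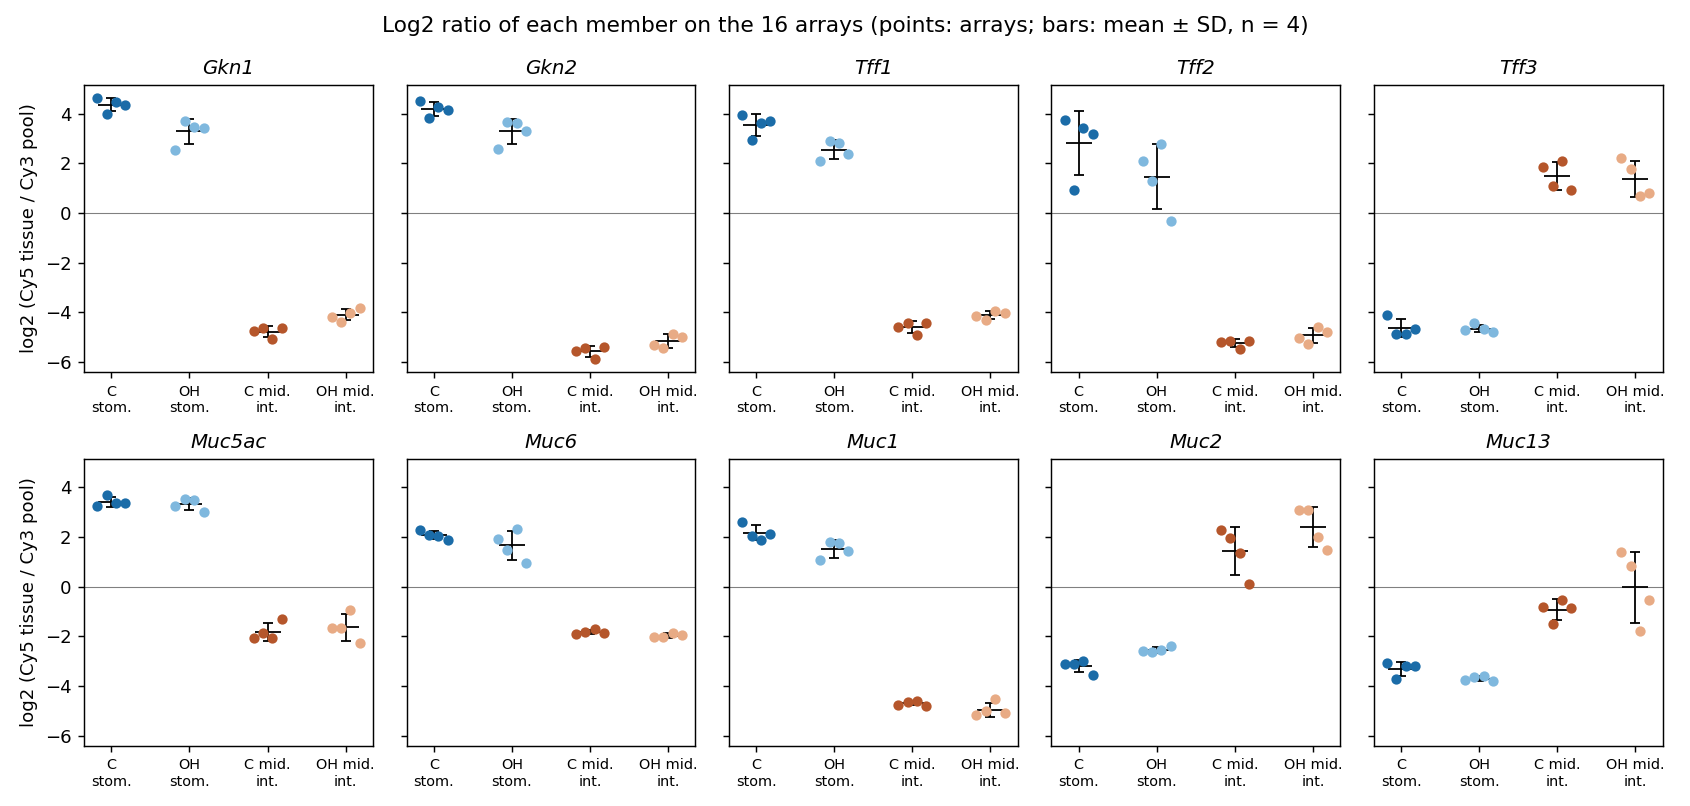
Log2 ratio of Cy5 (tissue) to Cy3 (reference pool) of the 10 member genes, brightest probe, on each of the 16 arrays in 4 groups; points are arrays, bars are the mean ± SD (n = 4). Gkn1, Gkn2, Tff1, Tff2, Muc5ac, Muc6 and Muc1 lie higher on all stomach arrays, Tff3, Muc2 and Muc13 on all intestine arrays, and Tff2 is the most scattered member within stomach.

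By the ratio, the gastrokines had the largest tissue difference of the members, which did not hold for the tissue channel alone (below). Gkn1, a protein of the gastric surface, had log2 ratios of 4.62, 3.98, 4.47 and 4.36 on the C stomach arrays and -4.75, -4.64, -5.09 and -4.63 on the C middle intestine arrays. The lowest stomach array was thus far above the highest intestine array. The log2 difference was 9.14 ± 0.22 (SE, limma adjusted p = 8.46e-13), a ratio 562-fold higher in stomach. Gkn2, which pairs with Tff1 in gastric mucus, had 4.49, 3.82, 4.27 and 4.16 in C stomach and -5.58, -5.44, -5.88 and -5.41 in C middle intestine. Its log2 difference was 9.76 ± 0.23 (limma adjusted p = 5.35e-13), with no overlap between the groups. Replicate 2 was the lowest C stomach array for both genes.

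Tff1 and Tff2 were higher in stomach and Tff3 was higher in middle intestine. Tff1, the trefoil factor of surface mucous cells, had log2 ratios of 3.93, 2.93, 3.63 and 3.69 in C stomach and -4.59, -4.45, -4.92 and -4.42 in C middle intestine, a difference of 8.14 ± 0.22 (limma adjusted p = 1.69e-12). Tff2, the trefoil factor of mucous neck cells, had 3.73, 0.91, 3.42 and 3.17 in C stomach and -5.20, -5.16, -5.50 and -5.14 in C middle intestine, a difference of 8.06 ± 0.61 (limma adjusted p = 9.53e-08). One C stomach array, replicate 2, was far below the other 3, and without it the Tff2 difference was 8.69, or 413-fold in place of 267-fold. Tff3, the trefoil factor of goblet cells, had -4.10, -4.86, -4.87 and -4.68 in C stomach against 1.84, 1.1, 2.10 and 0.93 in C middle intestine. It was lower in stomach by a log2 difference of -6.12 ± 0.33 (limma adjusted p = 3.20e-09), a ratio 69.5-fold higher in middle intestine. The 3 trefoil genes, whose probes lie next to each other on chromosome 20, thus had opposite tissue levels.

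The gel-forming mucins split in the same way. Muc5ac, the gel mucin of the gastric surface, was well above background on all 8 stomach arrays and on 0 of the 8 intestine arrays, so that its level in intestine has only an upper bound. Its log2 ratios were 3.23, 3.67, 3.36 and 3.36 in C stomach and -2.06, -1.87, -2.07 and -1.30 in C middle intestine. A bound took the lowest signal of any probe well above background on each array as the limit. By it Muc5ac was at least 576-fold higher in Cy5 in C stomach than in C middle intestine (limma adjusted p of the ratio = 5.83e-10). The value is the lower of the bounds from the processed signal and from the signal normalized between arrays. A higher limit would give a smaller fold. Muc6, the gel mucin of neck and gland cells, was well above background on all 16 arrays. It had 2.27, 2.08, 2.05 and 1.88 in C stomach and -1.92, -1.83, -1.70 and -1.87 in C middle intestine, a difference of 3.90 ± 0.21 (limma adjusted p = 3.11e-09), and its other probe gave 4.46 ± 0.22.

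Muc2, the gel mucin of goblet cells, was well above background on all 8 intestine arrays and on 0 of the 8 stomach arrays with either probe. The brighter probe had log2 ratios of -3.13, -3.11, -2.98 and -3.55 in C stomach and 2.29, 1.98, 1.34 and 0.11 in C middle intestine. The intestine arrays were widely spread, with replicate 4 lowest, but all lay above every stomach array. By the same kind of bound Muc2 was at least 23.2-fold higher in C middle intestine by the brighter probe and at least 27.6-fold by the other (limma adjusted p of the ratio = 6.92e-07 and 2.05e-07). Muc2 and Muc6 are next neighbours in the genome and were high in opposite tissues. With normexp and loess the log2 difference of Muc2 was -1.30 in place of -4.62 and that of Muc5ac 3.41 in place of 5.23, both still called. These are 2.46-fold and 10.6-fold in the ratio, below the bounds in Cy5, so that the size of both differences is uncertain.

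The membrane mucins also differed in direction. Muc1 had log2 ratios of 2.60, 2.03, 1.89 and 2.14 in C stomach and -4.76, -4.64, -4.61 and -4.79 in C middle intestine, a difference of 6.87 ± 0.19 (limma adjusted p = 2.40e-12). The groups were tight and far apart. With normexp and loess the difference was 5.70, or 51.9-fold in place of 117-fold. Muc13 had -3.10, -3.73, -3.18 and -3.22 in C stomach and -0.82, -1.51, -0.52 and -0.84 in C middle intestine. It was lower in stomach by a log2 difference of -2.38 ± 0.49 (limma adjusted p = 0.00130), the smallest tissue difference among the members, and it was well above background in both tissues.

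OH stomach and OH middle intestine gave the same split of 7 members higher and 3 lower, with 10 of 10 called against 41.7% of all genes (20.8% higher and 20.9% lower). These counts again include Muc5ac and Muc2, which passed the filter only through the tissue where they are high. The OH comparison uses other arrays than the C comparison but the same probes and design. Gkn1 differed by 7.39 ± 0.22, Gkn2 by 8.45 ± 0.23, Tff1 by 6.64 ± 0.22, Tff2 by 6.39 ± 0.61 and Tff3 by -6.02 ± 0.33 on the log2 scale. In Cy5 alone Gkn1 differed by 5.26, Gkn2 by 5.70, Tff1 by 4.06 and Tff2 by 5.87. Their Cy3 differences were -2.13, -2.75, -2.59 and -0.52, and both channels of the C groups are given below. Muc6 differed by 3.64 ± 0.21, Muc1 by 6.48 ± 0.19 and Muc13 by -3.68 ± 0.49, and the largest adjusted p among the 10 members was 3.54e-05 (limma). By the same kind of bound as in the C groups, Muc5ac was at least 302-fold higher in OH stomach. Muc2 was at least 29.3-fold higher in OH middle intestine by the brighter probe and 25.1-fold by the other. These folds, too, depend on the limit. Without OH stomach replicate 4, the lowest for Tff2, the Tff2 difference was 6.98, or 127-fold in place of 84.1-fold. For every member, both groups of the higher tissue lay above both groups of the lower tissue, and 38.3% of all genes did not overlap between the OH groups. The neighbours in that order, C and OH of the same tissue, did not pass the test (below).

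The reference channel differed by more than 1 step of log2 between the tissues for 5 members, which enters their ratios. Cy3 held the same pool on every array, and over all probes its median log2 signal was -0.15 in C stomach against C middle intestine. Tff1 had a mean log2 Cy3 signal of 14.47 ± 0.44 (SD, n = 4) on C stomach arrays and 18.46 ± 0.18 on C middle intestine arrays, a difference of -3.99. Gkn2 had 13.06 ± 0.29 and 16.69 ± 0.18, and Gkn1 had 13.61 ± 0.27 and 16.90 ± 0.18, differences of -3.63 and -3.29. By the size of this Cy3 difference Tff1, Gkn2 and Gkn1 stood at ranks 9, 10 and 11 of 13233 genes. Muc5ac had the reverse, with 8.33 ± 0.51 on C stomach and 4.16 ± 0.19 on C middle intestine arrays, a difference of 4.17 at rank 6, and Tff2 had -1.47 at rank 37. For Muc6, Muc1 and Tff3 the Cy3 difference lay between -0.19 and -0.02.

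The Cy5 channel, which carries the tissue, kept the direction of all 10 members. Its processed signal is taken after dye normalization, which uses both channels, so that it is not free of the reference. Cy5 was called for 10 of 10 members, against 43.8% of all genes, and the reference in Cy3 was called for 7 of 10, against 8.15%. The Cy5 count includes Muc5ac and Muc2, which passed the filter on Cy5 only through the tissue where they are high. The Cy5 log2 difference between C stomach and C middle intestine was 4.15 ± 0.16 for Tff1, 17.8-fold in place of 282-fold in the ratio. It was 5.85 ± 0.16 for Gkn1, or 57.6-fold, 6.13 ± 0.17 for Gkn2, or 70.1-fold, and 6.59 ± 0.37 for Tff2, or 96.5-fold. For Muc5ac the Cy5 difference has only the lower bound of 576-fold, which depends on its limit, above the 37.6-fold of the ratio. For Tff3, Muc6 and Muc1 it was -6.31, 3.84 and 6.84, near the values of the ratio. In Cy5 the differences of Gkn1, Gkn2, Tff2, Tff3 and Muc1 lay between 5.85 and 6.84 in size, so that the gastrokines did not stand above the other members there. No spot of any member was marked as saturated in either channel. The C stomach Cy5 signal was 17.96 ± 0.03 (SD) for Gkn1, 17.24 ± 0.03 for Gkn2 and 18.02 ± 0.07 for Tff1, against 12.25 ± 0.25 for Muc1. Whether differences are understated at this brightness was not tested. The part of the reference in these differences was not tested.

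**Figure D2:**
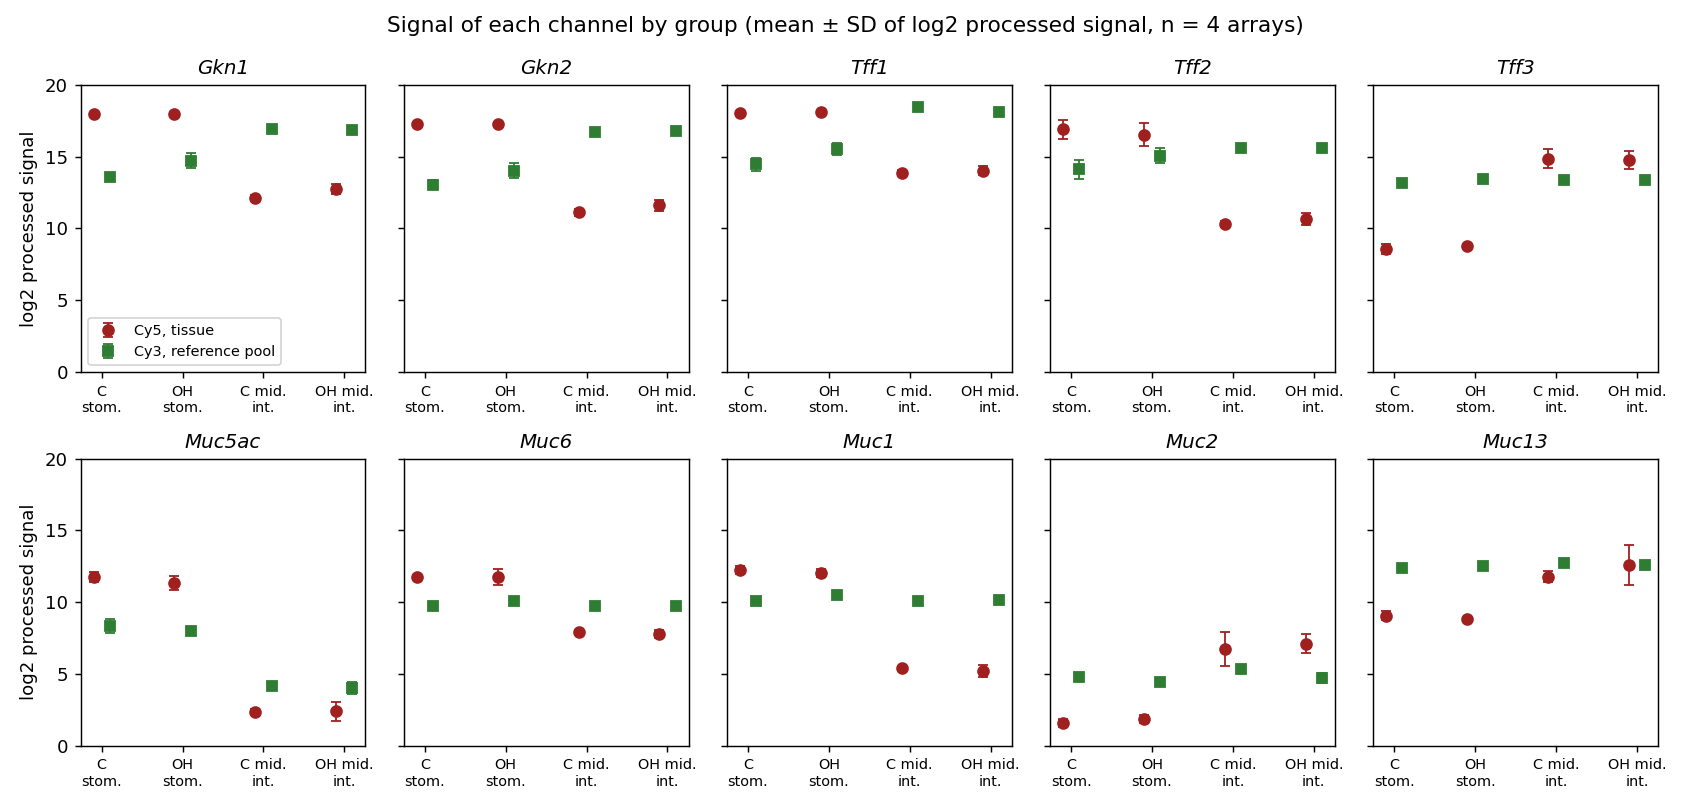
Mean ± SD (n = 4 arrays) of the log2 processed signal of each member in Cy5 (tissue, red circles) and Cy3 (reference pool, green squares) in the 4 groups. The green squares of Gkn1, Gkn2 and Tff1 lie 3.29 to 3.99 lower on C stomach than on C middle intestine arrays and that of Muc5ac 4.17 higher, while those of Muc6, Muc1 and Tff3 stay nearly level.

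The other mucus genes of the tissue comparison were taken from 4 lists, with 47 genes tested. In C stomach against C middle intestine 28 were higher, 9 were lower and 10 did not pass, with a median log2 difference of 0.97. Over all genes 47.6% were called, 23.2% higher and 24.3% lower, and the list counts below are to be read beside these shares. In OH stomach against OH middle intestine 26 were higher and 11 lower, where 20.8% and 20.9% of all genes were. The list of gastric surface and neck mucous cell genes was higher as a whole, 8 of 8 in both comparisons, with a median of 6.09 in the C groups. It includes Vsig1, a junction protein of gastric epithelium, with 7.46 ± 0.31, Gkn3, the third gastrokine and neighbour of Gkn1, with 7.01 ± 0.28, and Ctse, the protease cathepsin E, with 6.91 ± 0.23 (limma adjusted p = 1.99e-10, 1.19e-10 and 2.24e-11). Sult1c2, a sulfotransferase, had 6.13 ± 0.37 and Dpcr1, a mucin-like membrane protein, 6.04 ± 0.30. Vsig1 was well above background on only 2 C and 1 OH middle intestine arrays, so that the size of its difference is uncertain.

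The goblet cell and mucus layer list was divided, with 7 of 14 higher and 6 lower in C stomach. Of those higher, Bcas1 had mean log2 ratios of 2.45 in C stomach and -0.43 in C middle intestine. Klf4 had 2.25 and -0.07, Ern2 1.90 and -0.41, Agr2 1.57 and -0.38, and Foxa3 2.03 and 0.45. Those lower, hence higher in intestine, include Itln1, an intestinal lectin, by -6.61 ± 0.27, Zg16, a lectin of the goblet cell granule, by -4.61 ± 0.56, and Atoh1, the factor that sets the secretory lineage, by -3.07 ± 0.24 (limma adjusted p = 1.34e-10, 1.37e-05 and 1.28e-07). Clca1, a secreted mucus protein, had -2.76 ± 0.41 and Retnlb, a goblet cell resistin, -2.36 ± 0.18. In OH rats Fcgbp, a large protein of the mucus gel, was also among the 6 largest of this direction, with -3.67 ± 0.43 (limma adjusted p = 1.03e-05). Itln1 shared the uneven reference, with a Cy3 difference of -4.12 beside a Cy5 difference of -10.74 in the C groups. The list of mucin O-glycosylation enzymes had 11 of 22 higher, 2 lower and 9 not passing, where 47.6% of all genes were called. It was led by St6galnac2, a sialyltransferase, with 3.97 ± 0.28 (limma adjusted p = 4.03e-08). Of 3 other mucins tested, Muc16 and Muc5b, named here after their values were seen, were higher in stomach and Muc3, a membrane mucin of the intestine, was lower by -4.82 ± 0.24 (limma adjusted p = 1.15e-09). Muc16 and Muc5b were each well above background on only 2 C middle intestine arrays, so that the size of their difference is uncertain. Muc5b lay far below the pool in both tissues, at -3.52 in C stomach and -5.46 in C middle intestine.

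**Figure D3:**
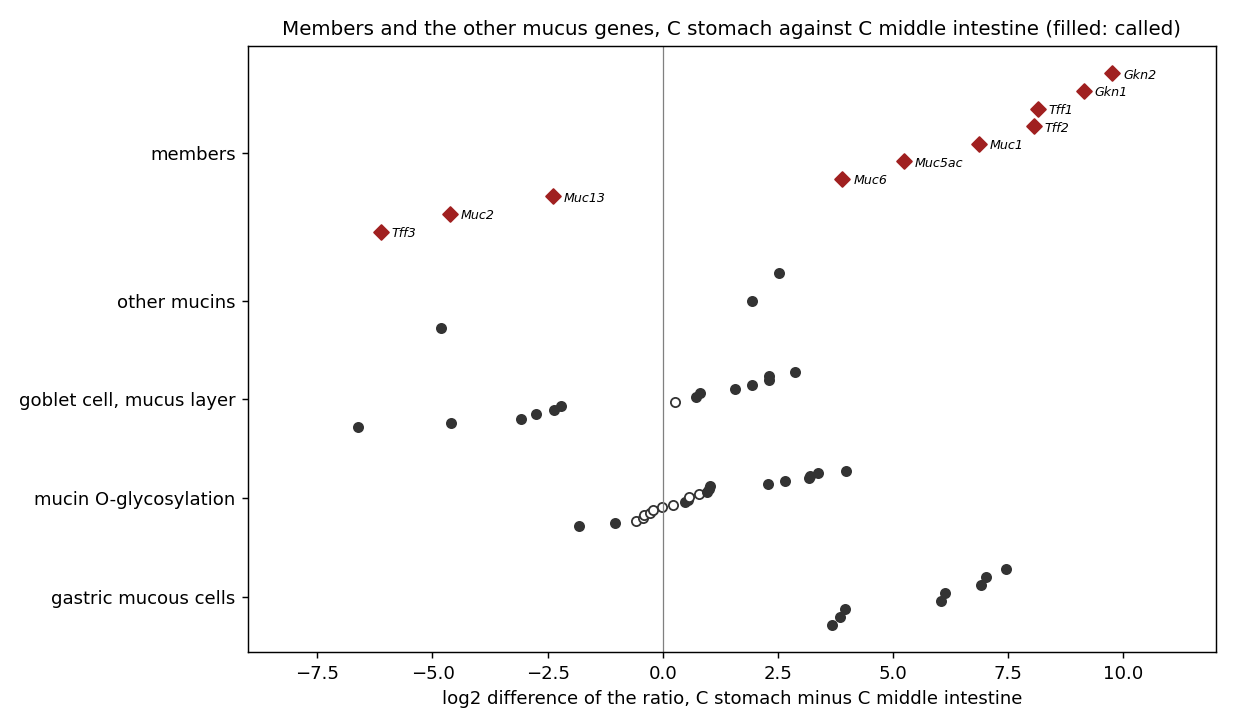
Log2 difference of the ratio between C stomach and C middle intestine for the 10 members (red diamonds) and for the genes of 4 mucus lists (circles; filled where called at adjusted p under 0.05); the height within a row only spreads the points. All 8 gastric mucous cell genes lie right of 0 with the 7 gastric members, while 6 of the 14 goblet cell genes lie left of 0 with Tff3, Muc2 and Muc13.

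The genes whose log2 ratios were most like those of each member over the 16 arrays were taken as a description, since the points fall into the arrays of the 2 tissues and share the reference. Tff1 was most like Ctse (Pearson r = 0.999), Gkn1 and Gkn2 were most like Slc5a5, the iodide transporter (r = 0.998 and 0.999), and Muc1 was also most like Slc5a5 (r = 0.998). Vsig2 was among the 3 most alike of all 4 of these genes. Muc5ac was most like Pgc, the precursor of a gastric pepsin (r = 0.993), Muc6 was most like Glul, glutamine synthetase (r = 0.994), and Tff2 was most like Nkx6-2 (r = 0.988). On the intestinal side Tff3 was most like Clrn3 (r = 0.996), Muc2 was most like Sct, the hormone secretin (r = 0.984), and Muc13 was most like Mov10, followed by Epcam, an epithelial adhesion protein (r = 0.982 and 0.980).

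The labelled tissues were checked against marker genes. Parietal and chief cell genes were higher in C stomach for 8 of 8, and their mean log2 ratio ran from 1.57 to 3.30 on stomach arrays and from -3.62 to -3.19 on intestine arrays. Enterocyte genes were lower in C stomach for 11 of 13, and Paneth cell genes for 8 of 9. Over all genes 23.2% were called higher and 24.3% lower in C stomach. Pancreas genes were higher in C stomach for 7 of 9 and forestomach squamous genes for 6 of 7. Muscle genes varied between stomach arrays: the mean of 11 striated muscle genes was 3.41, 2.90 and 3.61 on C stomach replicates 1, 3 and 4, -1.16 on replicate 2, and between -0.61 and 1.06 in OH stomach. Whether the samples held other tissue in varying amounts was not tested. Between 69.4% and 77.6% of the spots of an array were well above background in Cy5.

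OH was compared with C in stomach to find members whose level differed after obestatin. No member was called by limma, and neither was any of the 21174 probes (0% of genes). At an unadjusted p under 0.05 there were 5 members, Gkn1, Tff1, Gkn2, Muc1 and Tff2, all lower in OH, where 10.8% of all genes passed this level and 5.98% were lower. Of the 10 members 9 had a negative difference, the exception being Muc2, which was not well above background in stomach, against 50% of all genes, with a median of -0.52 among members and 0.00 over all genes. The arrays of both groups did not overlap for Gkn1, Gkn2, Tff1 and Muc1, all lower in OH, against 6.91% of all genes. Muc2 is left out of this count because its stomach values are not well above background.

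Gkn1 had log2 ratios of 2.53, 3.71, 3.48 and 3.41 in OH stomach, all below the lowest C stomach array at 3.98. The log2 difference was -1.08 (95% interval -1.55 to -0.60, unadjusted p = 0.000259, limma adjusted p = 0.193). Tff1 had 2.08, 2.90, 2.80 and 2.38 in OH stomach, all below the lowest C array at 2.93, and differed by -1.01 (95% interval -1.47 to -0.54, limma adjusted p = 0.193). Gkn2 had 2.58, 3.66, 3.61 and 3.31, all below 3.82, and differed by -0.89 (95% interval -1.37 to -0.41, limma adjusted p = 0.246). Replicate 1 was the lowest OH array for all 3 genes. Muc1 had 1.07, 1.82, 1.78 and 1.43 against a lowest C array of 1.89 and differed by -0.64 (95% interval -1.05 to -0.24, limma adjusted p = 0.306). The exact permutation test, two-sided, gave p = 0.029 for each of these 4 genes, the smallest it can give with 4 arrays against 4.

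The tissue channel of the 3 surface genes did not move with their ratios. The Cy5 log2 difference of OH stomach against C stomach was 0.03 ± 0.16 (SE) for Gkn1, 0.06 ± 0.16 for Tff1 and 0.06 ± 0.17 for Gkn2, while the Cy3 difference was 1.11 ± 0.18, 1.07 ± 0.19 and 0.95 ± 0.19. Over all probes the median difference was 0.32 in Cy5 and 0.33 in Cy3. Before processing, the median raw Cy3 signal was 341 to 399 on the OH arrays of both tissues and 188 to 195 on the C arrays. For raw Cy5 the medians were 163 to 328 and 178 to 293. The part of this raw Cy3 difference in the OH against C values was not tested. With Cy5 alone, quantile normalized, the 3 genes differed by -0.09, -0.03 and -0.16 (limma adjusted p = 0.808, 0.947 and 0.601). For 8 of the 10 members, Muc2 among them, the difference was larger in Cy3 than in Cy5, against 45.9% of all genes. Cy3 was called for 7 of 10 members, against 70.3% of all genes, and Cy5 for 0 of 10, against 7.72%. The processed Cy5 signal thus did not differ detectably for these genes. It is taken after dye normalization, which uses both channels. Their Cy5 signal in C stomach was bright and hardly spread, 17.96 ± 0.03 (SD) for Gkn1, 18.02 ± 0.07 for Tff1 and 17.24 ± 0.03 for Gkn2. In C middle intestine the SDs were 0.24, 0.23 and 0.21. Whether a difference would show at this brightness was not tested, so that an equal level in the tissue is not shown. The part of the reference channel in the ratios was not tested.

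**Figure D4:**
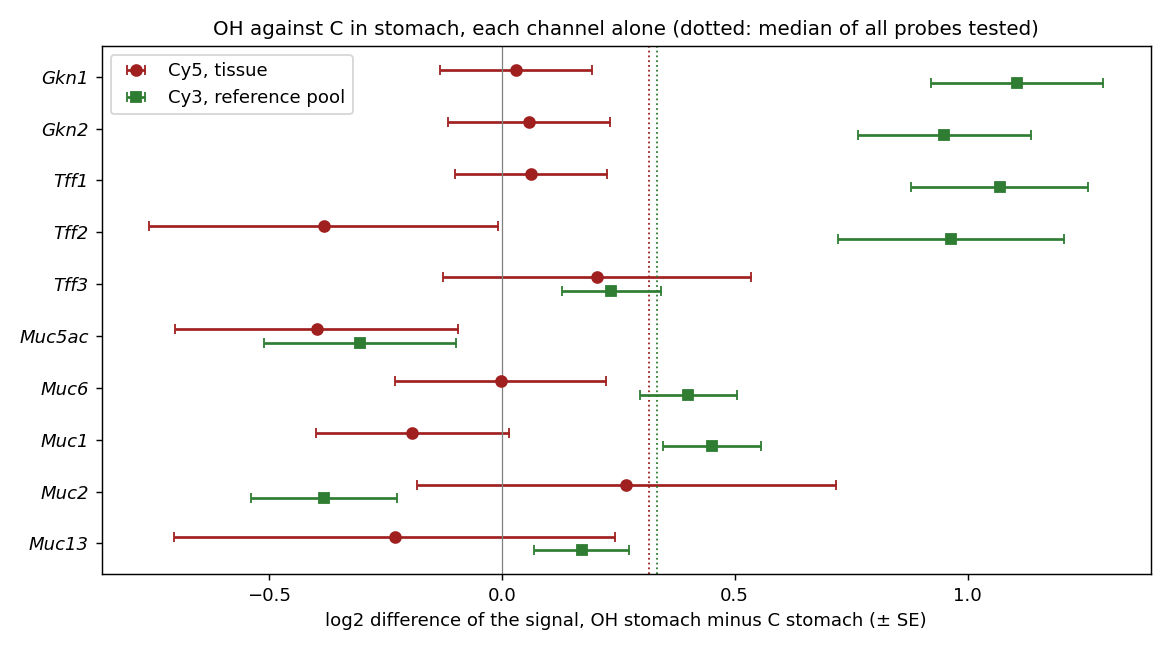
Log2 difference (± SE) of the processed signal between OH stomach and C stomach for each member, in Cy5 (tissue, red circles) and in Cy3 (reference pool, green squares); dotted lines are the medians over all probes, 0.32 and 0.33. For Gkn1, Gkn2 and Tff1 the circle lies near 0 and the square between 0.95 and 1.11.

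Tff2 was the most variable member in stomach. OH stomach had 2.10, 1.29, 2.76 and -0.31, and C stomach had the 0.91 of replicate 2 beside values of 3.17 to 3.73, so that the groups overlapped. The difference was -1.35 (95% interval -2.65 to -0.05, limma adjusted p = 0.461; exact permutation p = 0.2, two-sided). Leaving out each array in turn gave -1.98 to -0.76, the first without C stomach replicate 2 (3.95-fold in place of 2.54-fold, limma adjusted p = 0.0650). Its Cy5 signal was also low on these arrays, 15.92 on C stomach replicate 2 and 15.38 on OH stomach replicate 4, against 16.53 to 17.27 on the other 6. Muc6, of the same neck cells, had 1.91, 1.49, 2.32 and 0.95 in OH stomach and was lowest on the same OH array, but had 2.08 on C stomach replicate 2, in the middle of its group. Muc6 differed by -0.40 (95% interval -0.86 to 0.05, limma adjusted p = 0.523).

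The count of calls in stomach changed with 1 array and with the fit. Without C stomach replicate 2, Tff1 (-1.21, limma adjusted p = 0.00335), Gkn1 (-1.20, adjusted p = 0.0142) and Gkn2 (-1.01, adjusted p = 0.0425) passed the test, as did 446 probes in all. This array had the striated muscle mean of -1.16 and the highest parietal and chief cell mean, 3.30 against 1.63 to 2.18 on the other C stomach arrays. Array weights in the fit called Tff1, Gkn1, Gkn2 and Tff2, among 1138 of 21174 probes. A fit with no filter on dim probes called Tff1 and Gkn1, among 639 of 30367 probes. Tukey's HSD, the test named in the methods, called Tff1, Gkn1, Gkn2 and Muc1. In each of these settings every called member was lower in OH. Smooth muscle genes had means of -2.53 to -1.29 in C stomach, and of 1.03, -1.28, -2.58 and 0.20 on OH stomach replicates 1 to 4. Replicates 1 and 4 were also the lowest OH arrays for Gkn1, Tff1, Gkn2 and Muc1. Replicates 2 and 3 lay below the lowest C stomach array for these genes as well. The part of muscle and gland content in the OH against C differences was not tested.

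The other members in stomach stayed close between the treatments. Muc5ac had 3.23, 3.53, 3.48 and 3.01 in OH stomach and differed by -0.09 (95% interval -0.61 to 0.43). Tff3 differed by -0.03 (95% interval -0.74 to 0.68) and Muc13 by -0.40 (95% interval -1.45 to 0.65). Muc2 was not well above background on any array of either group, and its 2 probes disagreed in sign, 0.65 and -0.34, so that no direction is given for it here.

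OH was compared with C in middle intestine in the same way. No member was called, where 0.227% of all genes were, and at an unadjusted p under 0.05 there were 3 members, Gkn1, Tff1 and Muc2, all with positive differences, against 9.31% of genes. Differences were below 0 for 3 of 10 members, where 53% of all genes were, and the median was 0.37. Of the 7 others, Muc5ac was not well above background on any intestine array, so that its sign carries no direction. Gkn1 and Tff1 did not overlap between groups, against 5.23% of all genes.

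Gkn1 had -4.17, -4.38, -4.04 and -3.85 in OH middle intestine, all above the highest C array at -4.63, and differed by 0.67 (95% interval 0.19 to 1.15, limma adjusted p = 0.255). Its Cy5 difference was 0.62 ± 0.16 (SE) and its Cy3 difference -0.05 ± 0.18, so that here the tissue channel moved by nearly as much as the ratio (Cy5 adjusted p = 0.115). Tff1 had -4.14, -4.31, -3.95 and -4.03, all above -4.42, and differed by 0.49 (95% interval 0.02 to 0.95, limma adjusted p = 0.448), with 0.16 in Cy5 and -0.33 in Cy3. For both genes the exact permutation p was 0.029, two-sided. Gkn2 differed by 0.42 (95% interval -0.06 to 0.90). In this tissue all 3 ratios lay between -5.88 and -3.85, far below the level of the pool.

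The goblet cell members were not different by the test. Muc2 had 3.08, 3.1, 1.98 and 1.49 in OH and 2.29, 1.98, 1.34 and 0.11 in C middle intestine, which overlap, and differed by 0.98 (95% interval 0.09 to 1.88, limma adjusted p = 0.425). Its other probe gave 0.44 (95% interval -0.40 to 1.28). In Cy5 the probes differed by 0.35 and -0.29 and in Cy3 by -0.63 and -0.73. Tff3 had 2.21, 1.76, 0.68 and 0.81 in OH and differed by -0.13 (95% interval -0.84 to 0.59).

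Muc13 was widely spread in OH middle intestine, with 1.40, 0.82, -1.77 and -0.55, which reach above and below all 4 C arrays. It differed by 0.90 (95% interval -0.15 to 1.95, limma adjusted p = 0.584). The mean of 13 enterocyte genes ran 0.50, 1.19, -1.13 and -0.27 on the same 4 arrays, and between -0.84 and -0.01 in C middle intestine, and its part in the spread of Muc13 was not tested. Muc1 differed by -0.25 (95% interval -0.66 to 0.15), Tff2 by 0.32 (95% interval -0.98 to 1.62) and Muc6 by -0.14 (95% interval -0.59 to 0.31), with its other probe at 0.21.

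**Figure D5:**
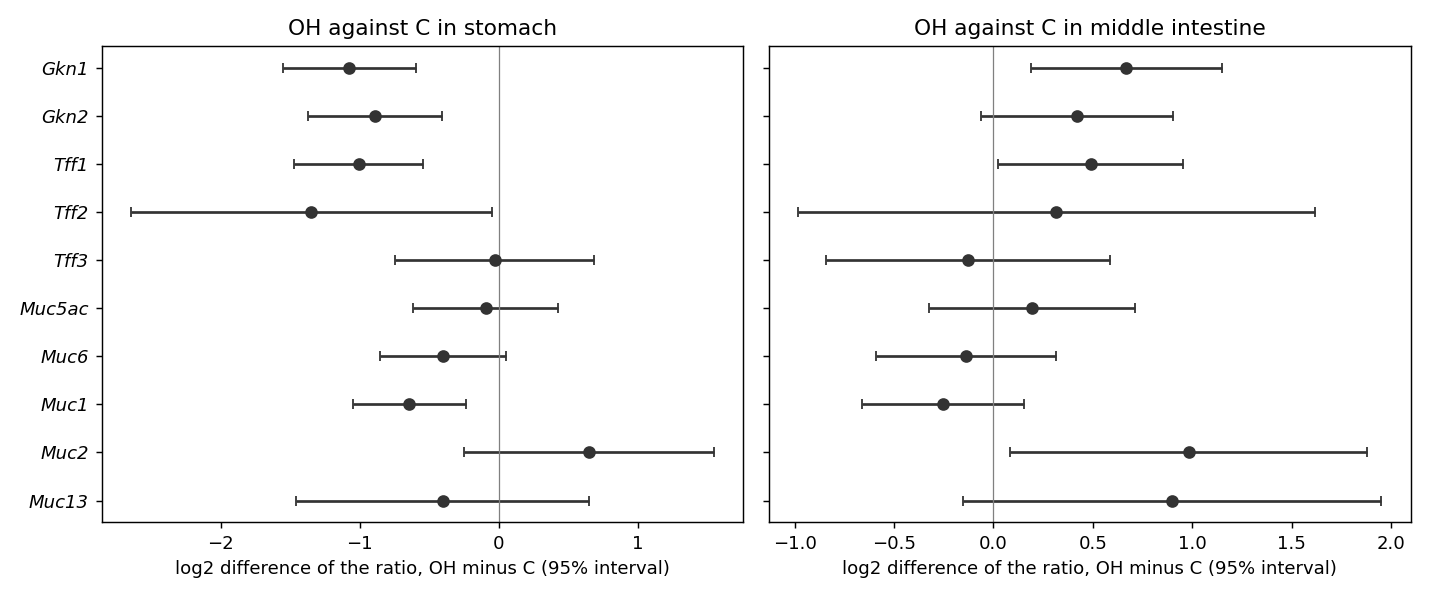
Log2 difference of the ratio between OH and C (points) with its 95% interval (bars) for each member in stomach (left) and middle intestine (right), each panel with its own scale. In stomach 9 of 10 points lie left of 0 and in middle intestine 7 of 10 lie right of 0, with Muc2 in stomach and Muc5ac in middle intestine not well above background; no member passed the adjusted test in either tissue.

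The difference between the tissues in the OH against C value was tested as an interaction, and no member passed (0% of genes). Gkn1 had -1.74 ± 0.32 (SE, unadjusted p = 6.90e-05, limma adjusted p = 0.394), Tff1 -1.50 ± 0.31 (limma adjusted p = 0.598) and Gkn2 -1.31 ± 0.32 (limma adjusted p = 0.800). These were the 3 members with an unadjusted p under 0.05, against 5.95% of genes. In Cy5 alone the same differences were -0.59, -0.09 and -0.43. Without C stomach replicate 2, Tff1 (-1.70, limma adjusted p = 0.00504) and Gkn1 (-1.87, limma adjusted p = 0.0116) passed, as did 159 of 21554 probes in all.

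The 47 other mucus genes held no call for obestatin. In stomach 0 were called and 8 had an unadjusted p under 0.05, where 10.8% of all genes did, and the median was -0.30 beside 0.00 over all genes. Those with the smallest p were Fcgbp (-1.37, limma adjusted p = 0.316), Ctse (-0.74, limma adjusted p = 0.316) and Gal3st1, a sulfotransferase (-0.72, limma adjusted p = 0.326). In middle intestine 0 were called and 1 had an unadjusted p under 0.05, where 9.31% of all genes did, Galnt10, an enzyme that starts O-glycan chains (0.78, limma adjusted p = 0.0638), with -0.52 in Cy5 and -1.31 in Cy3. The next were Vsig1 (0.65, limma adjusted p = 0.50) and Ctse (0.38, limma adjusted p = 0.635). Vsig1 was well above background on only 2 C and 1 OH arrays of this tissue, so that its sign carries no direction.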

How the data were processed

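For each array the authors deposited Agilent Feature Extraction output (10.10.1.1 in the file headers, 10.7.3.1 in the submitters' processing notes) with the processed intensity of Cy5 and Cy3 after background subtraction and Lowess dye normalization, and a table of log10 ratios, equal to those of the output for 15 of 16 arrays and to rounding for 1. No scaling between arrays was applied.

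Log2 ratios of the processed intensities were taken without control and outlier spots, and spots of a probe were averaged. The filter on dim probes asked for a Cy5 signal well above background on each of the 4 arrays of at least 1 group, and for at least 3 values per group. The 4 group means of the 16 arrays were fitted in limma 3.58.1 under R 4.3.3 (lmFit, eBayes), with Benjamini-Hochberg adjustment over 21174 probes and a threshold of 0.05. A gene is given by its brightest probe. Coordinates are those of the design (rn4). Promoters are from RefSeq (GRCr8).

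With 200 of 21174 probes changed by a log2 value of 2 in simulated ratios, 92.0% were recovered for OH against C in stomach and 92.5% in middle intestine. With a change of 1, the shares were 57.5% and 55.0%. The simulated noise was independent between probes and arrays, so that shared differences in sample content were left out. These shares are thus not the power of the test in the real arrays. A bound sets the bright group against the higher of the dim probe's signal and the lowest signal well above background on each array, on the processed Cy5 signal and on Cy5 after Aquantile normalization, and the lower of the 2 is given. A higher limit would give a smaller fold. The members, the gene lists and the naming rule (at most the 6 largest called list genes per direction, or the 3 with the smallest p where none was called, and the 3 most alike genes by Pearson r) were chosen with earlier results of these data known. Alternatives covered normalization, scaling, Cy5 alone, the log10 table, filters, outliers, arrays, blocks, moderation, weights, the test, probes and each array left out. The number of arrays limits the precision.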

Additional observations from a re-analysis of the deposited data

Results flagged for a closer look

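Of 40 sets of 4 arrays, 10 members in 4 groups, 1 held an array that stood apart from the other 3. Tff2 was -5.50 on C middle intestine replicate 3, against -5.20 to -5.14 on the others, and the gap was 0.854 of the range of the group. Chance gives such a mark in about 1 of 20 groups, or 2 of 40. The tissue difference of Tff2 on the log2 scale was 8.06.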

How the results depend on the processing

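The tissue comparisons kept the direction and the call of every member tested under all 33 alternatives, with 8 members tested and called where probes had to be well above background on all 16 arrays, which leaves out Muc2 and Muc5ac. OH against C in middle intestine called no member under any of 32 alternatives. OH against C in stomach, with 0 members called, had 2 with no filter on dim probes, 4 with array weights, 4 with the ANOVA and Tukey's HSD, and 0 to 3 with each array left out. The probes called were 639 of 30367 with no filter, 1138 of 21174 with array weights and 709 of 21174 with Tukey's HSD, whose p is not adjusted over probes. The difference between the tissues had 0, and 0 to 2 with each array left out. Of the alternatives chosen after seeing the data, leaving out both stomach arrays with low Tff2 (C replicate 2 and OH replicate 4) called 3 members in stomach and 2 for the difference, among 318 and 135 of 21581 probes. Leaving out C stomach replicate 2 with OH middle intestine replicate 4, which is high in pancreas genes, called 2 and 2, among 390 and 129 of 21587 probes.

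Directions turned for some members that were not called. With scale normalization, OH against C in stomach became 0.60 for Tff3 and 0.034 for Muc13, in middle intestine 0.21 for Muc6 and 0.65 for Muc1, and the difference for Muc2 was 0.10. With Cy5 alone the difference for Tff3 was -0.084, with array weights Tff3 had 0.0019 in middle intestine and -0.090 for the difference, and with the mean over probes Muc6 had 0.034 in middle intestine. With each array left out, Tff3 ran from -0.11 to 0.15 in stomach, from -0.41 to 0.10 in middle intestine and from -0.13 to 0.38 for the difference, Muc5ac from -0.16 to 0.0075 in stomach and from -0.040 to 0.41 in middle intestine, and Muc2 from -0.64 to 0.10 for the difference. Without both low Tff2 arrays Muc5ac had 0.10 in stomach, and without the other added pair Tff3 had 0.059 in middle intestine and -0.17 for the difference. The cause was not tested.

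The deviations of same-numbered stomach and intestine arrays of a treatment had correlations of 0.06 to 0.25 in C and -0.12 to 0.32 in OH, and the labels do not say that a number marks an animal, so the numbers were not taken to pair them. With the replicate block the member counts were 10, 10, 0, 0 and 0 and the probes called in middle intestine 40 in place of 78.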
